A study of Mus musculus with 4 samples.

Results

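The proliferating tumour cells of a mouse ovarian cancer model were chosen by their unique molecular identifier (UMI) counts, each UMI standing for 1 captured RNA molecule. A cell had to carry at least 200 detected genes, at most 33% mitochondrial UMIs, at least 5 UMIs of the keratins Krt7, Krt8, Krt18 and Krt19 and the mesothelial transcription factor Wt1, no UMI of the leukocyte gene Ptprc, at most 4 UMIs of Cd24a, Gkn2 and Krtdap, and at least 3 UMIs of the proliferation genes Mki67, Top2a and Ube2c. This rule found 7300 cells among 21692 tumour-gated cells and 46342 deposited cells. They comprised 2508 cells of the control, 819 of the BTYNB, 2699 of the anti-PD-1 and 1274 of the combination library. Because the rule read these cells' own expression, every difference between them and other tumour cells is given as a description, without a test.

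The study asked how inhibition of the RNA-binding protein Igf2bp1 and blockade of the immune checkpoint PD-1 act together on ovarian tumours, and profiled single cells of the ascites fluid. ID8-Trp53-/- cells, a Trp53-deficient mouse ovarian surface epithelial line labelled with iRFP, were injected into the peritoneal cavity of female C57BL/6 mice aged 6 weeks, so tumour cells of all groups lack Trp53. From day 7 after engraftment the control mice received vehicle (DMSO) and an IgG2a isotype antibody, the BTYNB mice the Igf2bp1-directed small molecule BTYNB and the isotype antibody, the anti-PD-1 mice the antibody RMP1-14 and vehicle, and the combination mice BTYNB and RMP1-14. The labels give BTYNB as 50 mg/kg and antibody as 100 ng per dose, whereas the methods give other amounts. Ascites was taken once about 3 mL had formed, cells of 6 mice per group were pooled and cryopreserved, and dead cells were removed, so each group is 1 library with no replicate and the spread between mice is unknown.

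The libraries held 7858, 19247, 12163 and 7074 cells for control, BTYNB, anti-PD-1 and combination (the order used throughout), and 80499877, 114600397, 89236522 and 78603888 UMIs. Depth differed between them, and the smallest deposited cell carried 4438, 869, 3533 and 5115 UMIs. Comparisons were therefore made at 5115 UMIs or more, which left 2450, 659, 2344 and 1274 proliferating cells, set against 2377, 1328, 2359 and 1561 tumour-gated cells with no UMI of the 3 proliferation genes (the comparison cells). Cell numbers serving as barcodes were shared by 0 to 4 cells between any pair of libraries. Proliferating cells were more often among the 5% of cells with the highest doublet scores, at 7.80%, 1.67%, 7.68% and 8.71%, against 1.98%, 0.979%, 3.01% and 1.73% of comparison cells.

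A dividing cell copies its DNA in S phase and separates the copies in mitosis, after the gap phase G2. Genes for DNA replication are switched on by E2F transcription factors, whereas genes for mitosis are held down in resting cells by the DREAM complex through a promoter element called the cell cycle genes homology region (CHR), and are switched on later by Mybl2 and Foxm1, often together with the factor NF-Y at CCAAT boxes. Mki67 coats mitotic chromosomes, Top2a untangles DNA and Ube2c feeds the anaphase-promoting complex, so the rule takes cells from S phase to mitosis. Tumour cells of an ascites grow in suspension or in clusters, and the share in cycle at one moment depends on how many enter and leave it.

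The promoters of the genes that set proliferating cells furthest apart are shown first, since these sequences are where such control acts. RefSeq sequences of assembly GRCm38.p6 were matched by symbol, with one window for 37 of 55 S phase genes and 68 of 92 G2/M genes, and cover the 250 bases before the transcription start. Rrm2, Rad51ap1, Hmmr and Ccnb1 were among the highest S phase or G2/M genes, and Mcm5 and Cdc20 were the highest-ranked S phase gene with an E2F match and the highest-ranked G2/M gene with a CHR match. Capitals mark matches on either strand to the CHR (TTTGAA or TTCAAA), the CCAAT box (CCAAT or ATTGG) or an E2F motif (TTTCGCGC, TTTGGCGC, TTTCCCGC, TTTGCCGC or their reverse complements).
Rrm2: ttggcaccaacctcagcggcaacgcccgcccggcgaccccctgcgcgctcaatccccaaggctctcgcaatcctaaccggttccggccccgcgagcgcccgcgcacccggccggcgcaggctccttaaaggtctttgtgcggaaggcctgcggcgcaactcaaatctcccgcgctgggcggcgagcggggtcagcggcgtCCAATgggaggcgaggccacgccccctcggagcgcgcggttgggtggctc
Rad51ap1: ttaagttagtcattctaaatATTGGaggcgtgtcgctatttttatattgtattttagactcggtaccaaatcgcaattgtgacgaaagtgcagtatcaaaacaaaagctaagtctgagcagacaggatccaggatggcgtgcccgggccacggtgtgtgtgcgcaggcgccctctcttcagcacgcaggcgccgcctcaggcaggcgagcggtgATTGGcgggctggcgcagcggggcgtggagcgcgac
Mcm5: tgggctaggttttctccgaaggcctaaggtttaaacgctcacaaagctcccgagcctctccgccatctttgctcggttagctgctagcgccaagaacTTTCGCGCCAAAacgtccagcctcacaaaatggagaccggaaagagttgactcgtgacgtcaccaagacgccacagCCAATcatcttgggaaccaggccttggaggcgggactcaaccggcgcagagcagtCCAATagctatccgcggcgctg
Hmmr: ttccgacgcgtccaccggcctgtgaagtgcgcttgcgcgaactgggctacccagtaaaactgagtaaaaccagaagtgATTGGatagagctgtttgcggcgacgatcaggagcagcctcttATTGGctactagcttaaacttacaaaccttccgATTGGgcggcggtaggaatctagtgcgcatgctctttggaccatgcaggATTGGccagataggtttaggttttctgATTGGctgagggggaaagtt
Ccnb1: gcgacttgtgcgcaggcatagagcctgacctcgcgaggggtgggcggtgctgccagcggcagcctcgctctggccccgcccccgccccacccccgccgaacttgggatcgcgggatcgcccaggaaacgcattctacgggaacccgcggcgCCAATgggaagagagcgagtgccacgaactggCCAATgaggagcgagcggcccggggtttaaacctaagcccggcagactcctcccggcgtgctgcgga
Cdc20: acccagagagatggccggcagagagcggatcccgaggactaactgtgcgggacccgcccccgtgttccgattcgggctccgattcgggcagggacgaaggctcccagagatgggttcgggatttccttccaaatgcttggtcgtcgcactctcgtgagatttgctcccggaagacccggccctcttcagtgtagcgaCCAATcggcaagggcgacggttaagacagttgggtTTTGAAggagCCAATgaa
The windows lie at chr12:24708004-24708253 (+ strand), chr6:126939588-126939837 (- strand), chr8:75109259-75109508 (+), chr11:40733438-40733687 (-), chr13:100786487-100786736 (-) and chr4:118437344-118437593 (-), each printed in the direction of its gene. The Mcm5 window holds overlapping E2F matches on both strands between positions -153 and -142, counted from the base before the start as -1. The Hmmr window holds 5 CCAAT boxes on the reverse strand and the Ccnb1 window 2 on the forward strand. The Cdc20 window holds a CHR at -18 to -13 between CCAAT boxes at -53 to -49 and -8 to -4. The windows of Tk1 and Nusap1, also among the highest genes, hold none of these letters, and Ccna2 and Prc1 had no single window.

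Across the lists, a CHR match stood in 33.8% of 68 G2/M windows, 8.11% of 37 S phase windows and 10.2% of 6922 windows of all genes tested (16.7% of all 22862 windows). An E2F match stood in 21.6% of S phase windows, 8.82% of G2/M windows and 4.05% of tested windows (1.93% of all). CCAAT boxes were common in both, at 64.9% of S phase and 67.6% of G2/M windows against 37.6% of tested windows and 34.7% of all. A CHR and a CCAAT box stood together in 26.5% of G2/M windows and 3.97% of tested windows. The CHR letters were thus the more frequent in mitotic and the E2F letters in replication promoters. These are counts of letters and do not show that a factor is bound.

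At 5115 UMIs or more, proliferating cells were 38.6%, 27.7%, 38.1% and 34.1% of the tumour-gated cells. The exact binomial 95% intervals, which cover counting error only, were 37.4 to 39.8%, 25.9 to 29.5%, 36.9 to 39.3% and 32.6 to 35.6%. Control and anti-PD-1 were the highest and differed by less than their intervals, BTYNB was the lowest, and the combination lay between. The tumour-gated cells of BTYNB were also the deepest, with a median of 17209 UMIs where control had 9742, anti-PD-1 had 7342 and the combination had 10863, and a deeper cell reaches 3 UMIs more easily. With each cell drawn down at random to 5115 UMIs before the rule was applied (thinned), the shares were 30.2% (29.0 to 31.3%), 19.1% (17.5 to 20.7%), 32.8% (31.6 to 34.0%) and 25.1% (23.7 to 26.5%). The order of control, combination and BTYNB was the same, and anti-PD-1 stood above control. BTYNB was 10.9 percentage points below control as counted and 11.1 points below after thinning. The combination was 4.03 points below anti-PD-1 as counted and 7.64 points below after thinning, and it was 6.39 points above BTYNB (6.04 after thinning). Without the limit of 5115 UMIs the combination (34.1%) stood above anti-PD-1 (33.1%). That limit removed 24.6% of the tumour-gated cells of anti-PD-1 and none of the combination. Anti-PD-1 was 0.487 points below control as counted and 2.59 points above it after thinning, so its direction turned with depth.

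**Figure D1:**
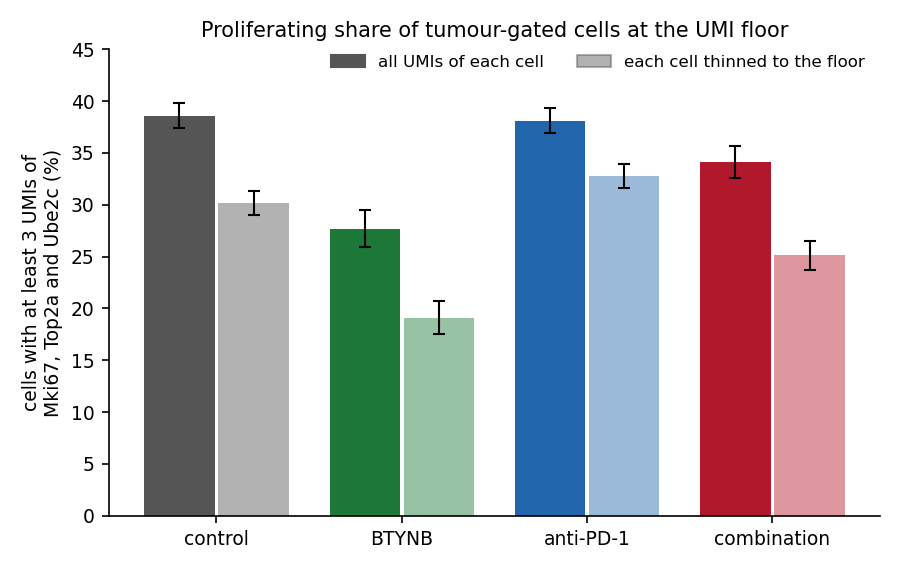
Share of proliferating cells among tumour-gated cells with at least 5115 UMIs in each library (percent), as counted and with each cell thinned to 5115 UMIs, with exact binomial 95% intervals. BTYNB is the lowest library on both scales, at 27.7% and 19.1%.

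Because any cell sheds RNA into the suspension, the same 3 genes were read in cells that were not tumour-gated. At the same depth, 22.1% of 86 B cell-gated BTYNB cells and 19.6% of 46 such combination cells reached 3 UMIs, at medians of 7127 and 6429 UMIs a cell. Over all depths 1.47% of 1772 B cell-gated BTYNB cells did so, at a median of 1918 UMIs. With every cell thinned to 1000 UMIs, at least 1 UMI of the 3 genes was found in 28.9%, 20.3%, 29.0% and 25.4% of tumour-gated cells, against 7.24% of B cell-gated cells in BTYNB and 15.2% of 46 in the combination. Leukocyte-gated cells reached 3 UMIs in 55.3% of 76 control cells, 22.0% of 1383 BTYNB cells, 47.6% of 21 anti-PD-1 cells and 30.5% of 729 combination cells. Their median depth at this limit was 5983, 7490, 5471 and 6696 UMIs. Thinned to 1000 UMIs, 45.5%, 10.1%, 39.1% and 30.04% of leukocyte-gated cells of any depth held a UMI of the 3 genes. The tumour-gated share was thus above that of B cell-gated cells at matched depth, but below that of leukocyte-gated cells in control, anti-PD-1 and the combination, and leukocytes that divide cannot be told apart from free RNA by these genes alone. The limit on Cd24a, Gkn2 and Krtdap removed 482, 432, 2632 and 631 cells with at least 5115 UMIs. Of these, 58.1%, 56.9%, 53.8% and 59.0% met the rule on Mki67, Top2a and Ube2c. After thinning, these shares were 43.6%, 30.8%, 45.7% and 39.0%, so a higher share of the removed cells than of the kept cells carried the 3 genes in every library.

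The rule's own genes were all present in most proliferating cells. Mki67 stood at 357, 319, 313 and 301 CPM (UMIs summed over cells and scaled to a total of 1000000), Top2a at 581, 532, 755 and 539 CPM, and Ube2c at 639, 523, 770 and 635 CPM. All 3 genes were detected in 67.3%, 66.5%, 63.7% and 64.8% of cells, 2 genes in 26.3%, 25.04%, 30.4% and 28.7%, and 1 gene in 6.37%, 8.50%, 5.89% and 6.44%. A median cell held 14, 16, 12 and 13 UMIs of the 3 genes together. No more than 8.50% of cells in any library thus entered through a single gene.

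Cells just inside the threshold, with 3 UMIs, numbered 242, 69, 242 and 159, and cells just outside it, with 2 UMIs, numbered 446, 109, 432 and 271. After thinning, the cells with 3 UMIs held a median of 19, 12, 21 and 12 UMIs of the 55 S phase genes and 19, 12, 21 and 14 of the 92 G2/M genes. The cells with 2 UMIs held 12, 10, 16 and 9 S phase UMIs and 13, 9, 15 and 10 G2/M UMIs. Cells with 5 to 9 UMIs held 29, 24, 28 and 20 S phase UMIs and 30, 21, 35 and 29 G2/M UMIs. Cells with 10 or more UMIs held 24, 25, 22 and 22 S phase UMIs and 64, 57, 72 and 60 G2/M UMIs. Both programmes were thus graded across the threshold, with no gap between 2 and 3 UMIs. Above it the S phase level was lower in cells with 10 or more UMIs than in those with 5 to 9 in control and anti-PD-1. The G2/M level was the highest with 10 or more UMIs, where the scale itself sums the G2/M genes Top2a and Ube2c.

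Keratin and Wt1 RNA was required of both cell sets, so its presence is no check of the tumour label, and only its level is described here. Krt8 stood at 367, 346, 410 and 323 CPM in proliferating cells and 320, 269, 371 and 258 CPM in comparison cells. Wt1 stood at 689, 793, 695 and 768 CPM against 840, 1054, 776 and 1074 CPM, and Krt19 at 400, 610, 624 and 632 CPM against 599, 703, 808 and 784 CPM. Krt18 stood at 332, 403, 487 and 353 CPM against 409, 476, 565.0 and 387 CPM, and Krt7, the scarcest, at 6.88, 12.9, 14.003 and 11.8 CPM against 14.3, 19.9, 23.97 and 16.3 CPM. Wt1, Krt19, Krt18 and Krt7 were thus the lower in proliferating cells in all 4 libraries and Krt8 the higher. The rule set one minimum for the summed UMIs of these genes, which asks a larger share of RNA from a shallower cell. Comparison cells were the shallower set in every library, so these differences can be in part how the cells were taken. The part of that minimum in the levels was not tested. Amhr2, the receptor of anti-Müllerian hormone, which the gate did not use, stood at 170.4, 195, 187 and 224 CPM in proliferating and 344, 419, 350.2 and 414 CPM in comparison cells.

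Proliferating cells carried more UMIs than comparison cells. Their median was 11635, 21255, 8166 and 12623 UMIs, against 8553, 15856, 6811 and 9867 UMIs in comparison cells, a ratio of 1.36, 1.34, 1.20 and 1.28. The rule favours deep cells, and with the rule applied to thinned cells the ratio of the full depths was 1.25, 1.21, 1.14 and 1.14. The median mitochondrial share of UMIs in proliferating minus comparison cells was -1.44, -1.57, -1.41 and -1.38 percentage points. The median share of ribosomal protein UMIs was higher by 1.55, 1.35, 0.841 and 1.94 points. Thinned to the same UMIs, proliferating minus comparison cells differed by -45, -16, -13 and -55 genes at the median, so proliferating cells spread their RNA over slightly fewer genes.

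The 55 S phase genes and the 92 G2/M genes, neither including the rule's 3 genes, were summed in each thinned cell. Proliferating cells held a median of 24, 23, 23 and 21 S phase UMIs, against 7, 5, 6 and 6 in comparison cells. For G2/M genes the medians were 47, 40, 53 and 41 UMIs against 7, 6, 7 and 7. Of the comparison cells, 6.48%, 1.96%, 6.06% and 4.55% held as many S phase UMIs as the median proliferating cell, but at most 0.0753% of any library held as many G2/M UMIs. These comparison cells hold no UMI of Top2a and Ube2c by their choice, and cells with 1 or 2 UMIs are in neither set.

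More G2/M than S phase UMIs were held by 71.8%, 68.9%, 76.4% and 73.2% of proliferating cells, with exact binomial 95% intervals of 69.9 to 73.5%, 65.2 to 72.4%, 74.6 to 78.1% and 70.7 to 75.7%. Comparison cells gave 47.1%, 51.1%, 50.9% and 50.0%. BTYNB and control overlapped, as did the combination with control and with anti-PD-1. The BTYNB interval lay wholly below that of anti-PD-1, and so did that of control. Such gaps reflect how many cells were counted and leave out the spread between mice, so no treatment difference was tested. Proliferating cells were chosen before thinning, at a median depth of 21255 UMIs in BTYNB and 8166 in anti-PD-1. The part of this depth difference in the shares was not tested. The rule contains the G2/M genes Ube2c and Top2a, so a G2/M lead is in part how the cells were taken.

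**Figure D2:**
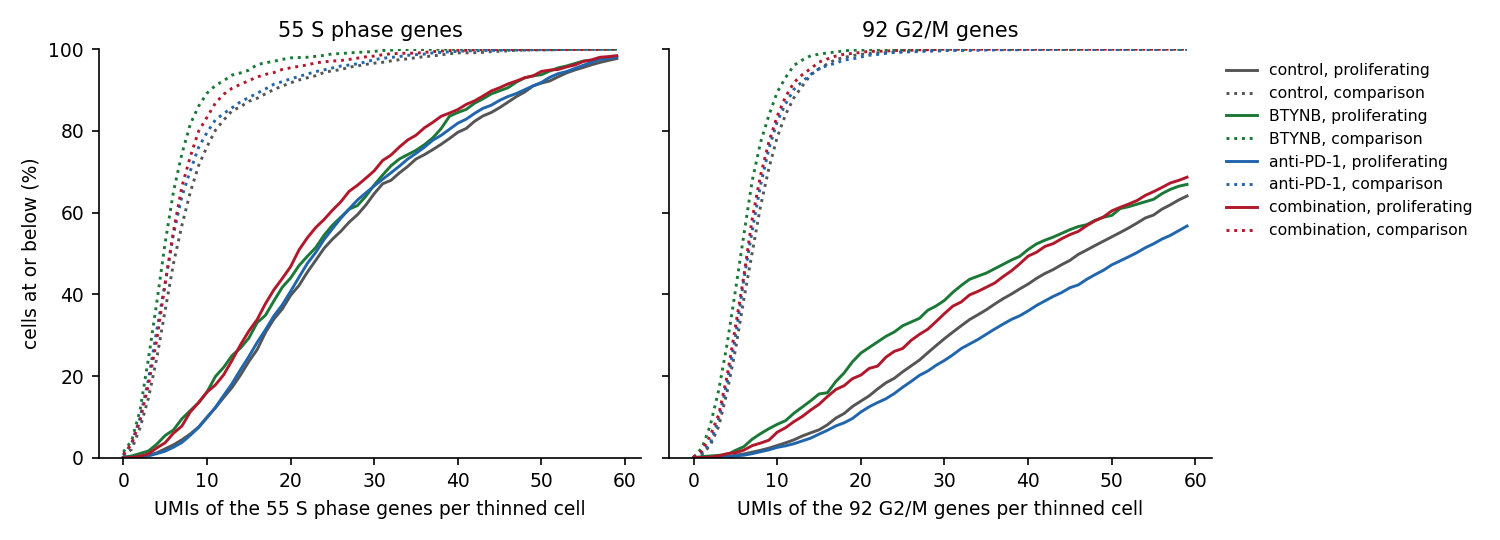
Cumulative share of cells (percent) by their UMIs of the 55 S phase genes (left) and the 92 G2/M genes (right), each cell thinned to 5115 UMIs, with solid lines for proliferating and dotted lines for comparison cells of each library. The G2/M curves of proliferating cells cross their medians at 40 to 53 UMIs and those of comparison cells at 6 or 7, and the anti-PD-1 proliferating cells lie furthest right.

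Across 11019 genes with at least 100 UMIs in every library, 349 had a log2 ratio of proliferating against comparison cells of 1 or more in each of the 4 libraries (past the fold, on CPM with a pseudocount of 1 CPM, 3.17% of genes tested), and 52 had -1 or less in each (0.472%). These percentages are the background for the lists that follow, and nothing is read from them, since the rule took the cells by genes of the same programme. With a pseudocount of 10 CPM 218 genes were higher and 11 lower, and without the anti-PD-1 library 95 were lower. The median over all genes was -0.13, -0.09, -0.10 and -0.14. Ratios of the cell cycle lists were often largest in BTYNB, whose comparison cells were also the deepest. In thinned cells the median of the G2/M genes was 3.55, 4.23, 3.71 and 3.64 and that of the S phase genes 1.51, 1.94, 1.53 and 1.62, with BTYNB again the highest.

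Replication licensing genes load and fire the helicase that opens DNA at origins, and 19 of 21 were past the fold in all 4 libraries. Their median log2 ratio was 1.68, 2.16, 1.73 and 1.89. Mcm10, which joins the helicase to the polymerases, had ratios of 2.71, 3.63, 2.91 and 3.26. Mcm5, a helicase subunit whose promoter is printed above, stood at 133, 142, 122 and 132 CPM in proliferating and 33.6, 18.4, 30.5 and 25.9 CPM in comparison cells, with log2 ratios of 1.95, 2.88, 1.96 and 2.30. Mcm6, another subunit, stood at 209.9, 204, 191 and 198 CPM in proliferating cells and had the smaller ratios of 1.07, 1.69, 1.13 and 1.34. The 2 members short of the fold were Gins4, at 0.94, 0.94, 0.80 and 0.98, and Orc6, at 0.94, 1.10, 0.93 and 1.05, each just under 1 in at least 2 libraries.

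DNA synthesis genes make nucleotides, copy the strands and mend breaks, and 29 of 34 were past the fold, with medians of 1.72, 2.15, 1.87 and 1.88. Rrm2, the regulated subunit of the enzyme that makes deoxynucleotides, stood at 127, 116, 187 and 110.2 CPM against 6.37, 1.55, 10.8 and 5.31 CPM, the highest ratio of either S phase list at 4.12, 5.51, 3.99 and 4.14. Rad51ap1, which acts in recombination, had ratios of 3.08, 4.02, 3.24 and 3.61. Tk1, which salvages thymidine, had 2.96, 3.64, 2.84 and 3.40. The lowest member was Rfc1, the large subunit of the clamp loader, at 0.46, 0.504, 0.497 and 0.56, and Slbp, which binds histone mRNA, had 0.82, 0.79, 0.89 and 0.67. All 34 members were above 0 in all 4 libraries.

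Mitotic kinases and cyclins drive entry into mitosis, and all 20 were past the fold, with medians of 3.74, 4.47, 3.95 and 3.85. Ccna2, the cyclin of S phase and G2, stood at 281, 218, 291 and 217 CPM in proliferating and 7.29, 1.87, 8.46 and 6.25 CPM in comparison cells, with log2 ratios of 5.09, 6.25, 4.95 and 4.91, the highest of all genes by the smallest library. Ccnb1, the mitotic cyclin, stood at 158, 119.6, 188 and 122 CPM against 5.12, 1.05, 3.91 and 3.89 CPM, with ratios of 4.70, 5.88, 5.27 and 4.66. BTYNB had the lowest comparison levels of both cyclins. Plk1, a kinase of spindle and centrosome, stood at 66.1, 42.6, 61.8 and 50.8 CPM, with ratios of 4.54, 5.05, 4.78 and 4.57, and Birc5, a subunit of the chromosomal passenger complex with Aurkb, at 296, 278, 359 and 323 CPM, with ratios of 4.33, 5.48, 4.69 and 4.75. Aurkb itself had ratios of 4.49, 4.83, 4.58 and 4.28, and Pbk, a mitotic kinase, 4.22, 5.47, 4.24 and 4.46. The lowest member was Pkmyt1, the kinase that holds Cdk1 inactive, at 1.37, 1.85, 1.72 and 1.41.

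Kinetochores tie chromosomes to the spindle, and 21 of 22 genes of kinetochore and checkpoint were past the fold, with medians of 3.73, 3.89, 3.70 and 3.53. Ndc80, which binds microtubules, led with ratios of 4.59, 4.999, 4.38 and 4.28, and Cenpf had 4.07, 5.48, 4.36 and 4.37. Bub3, a checkpoint protein that cells outside mitosis also make, was short of the fold in BTYNB and the combination, with 1.02, 0.89, 1.17 and 0.88. Of the spindle and motor genes all 24 were past the fold, with medians of 3.53, 4.02, 3.83 and 3.65. Nusap1, which bundles spindle microtubules, stood at 140.3, 111, 157 and 130.3 CPM against 4.15, 1.60, 3.62 and 3.65 CPM, with ratios of 4.78, 5.43, 5.10 and 4.82. Hmmr, a spindle protein with 5 CCAAT boxes in its promoter, stood at 188, 166, 221 and 157 CPM against 6.27, 1.42, 6.07 and 4.42 CPM, with ratios of 4.70, 6.11, 4.97 and 4.87. Tpx2, an activator of Aurora A kinase, had 4.22, 5.35, 4.30 and 4.39.

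Condensin packs chromosomes and cohesin holds sister copies together, and 11 of 14 of their genes were past the fold, with medians of 2.49, 3.005, 2.69 and 2.69. Esco2, which fixes cohesin in S phase, led with 4.58, 4.60, 4.06 and 4.09, and Ncapg, a condensin subunit, had 4.08, 4.89, 4.26 and 4.10. The cohesin ring subunits Smc1a, at 0.54, 0.61, 0.76 and 0.55, and Smc3, at 0.53, 0.71, 0.69 and 0.63, were among the lowest. Pttg1, securin, which keeps the cohesin-cutting enzyme inactive until anaphase, went the other way from the 91 other G2/M genes. It stood at 72.7, 69.02, 75.5 and 68.6 CPM in proliferating cells and 84.6, 86.6, 92.97 and 89.2 CPM in comparison cells, with ratios of -0.22, -0.32, -0.30 and -0.37. Its level was thus slightly lower in proliferating cells in all 4 libraries.

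Of the genes of cytokinesis and mitotic exit, 11 of 12 were past the fold, with medians of 3.47, 3.92, 3.56 and 3.56. Prc1, which builds the midzone between separating chromosomes, stood at 350.1, 239, 388 and 263 CPM against 11.6, 3.57, 12.4 and 8.66 CPM, with ratios of 4.80, 5.72, 4.86 and 4.77. Cdc20, the activator of the anaphase-promoting complex whose promoter carries the CHR letters, stood at 173.5, 135, 158 and 135 CPM against 7.93, 2.65, 6.71 and 5.95 CPM, with ratios of 4.29, 5.22, 4.37 and 4.29. Cep55, which acts at the final cut, had 4.21, 5.17, 4.25 and 4.42. Fzr1, the activator that keeps the same complex running in G1, was the one short of the fold, at 0.84, 0.77, 1.05 and 0.97. The anaphase activator thus had ratios above 4 in every library and the G1 activator ratios near 1.

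**Figure D3:**
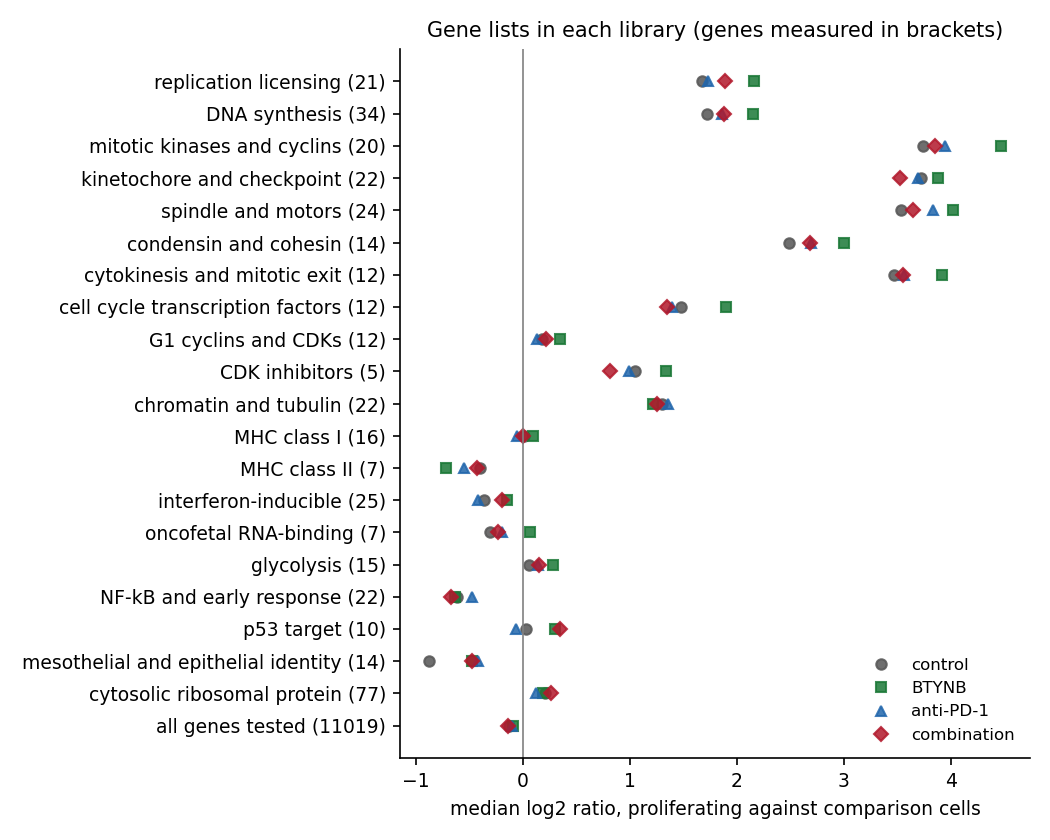
Median log2 ratio of proliferating against comparison cells for each gene list (CPM from summed UMIs, pseudocount 1 CPM), 1 point per library. The mitotic lists lie between 2.49 and 4.47, the replication lists between 1.68 and 2.16, and the lists of MHC class II and of NF-kB and early response below 0 in all 4 libraries.

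Of 12 cell cycle transcription factors, 9 were past the fold, with medians of 1.48, 1.90, 1.39 and 1.35. The repressor E2f8, which shuts S phase genes off again, led with 3.93, 4.26, 3.44 and 3.55. Foxm1, the activator of late mitotic genes, stood at 34.9, 34.2, 41.5 and 30.05 CPM against 2.63, 1.55, 2.97 and 2.42 CPM, with ratios of 3.31, 3.78, 3.42 and 3.18, and Mybl2 had 2.36, 2.503, 2.08 and 2.37. The 3 short of the fold were Lin52, a subunit of the DREAM complex, at 0.15, 0.09, 0.53 and 0.14, Tfdp1, the partner of the E2Fs, at 0.73, 1.07, 0.85 and 0.96, and E2f3.

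Genes that set entry into the cycle differed much less. Of 12 G1 cyclins, CDKs and pocket proteins, 2 were past the fold, with medians of 0.18, 0.35, 0.14 and 0.22. These were Ccne2, a cyclin E, at 1.31, 2.15, 1.78 and 2.01, and the pocket protein Rbl1, at 1.26, 1.55, 1.51 and 1.48. Ccne1, the other cyclin E, had 1.62, 2.06, 0.97 and 1.85 and missed the fold in anti-PD-1. Ccnd2, a D cyclin that links growth signals to the cycle, was lower in proliferating cells, at 148, 163, 179 and 152 CPM against 253, 238, 335 and 228 CPM, with ratios of -0.77, -0.54, -0.90 and -0.58. Rbl2, the pocket protein of resting cells, had -0.57, -0.48, -0.18 and -0.43. Of the CDK inhibitors, 5 of 8 were measured and 2 were past the fold. Cdkn3, a phosphatase of CDKs, stood at 51.5, 53.1, 68.96 and 61.2 CPM against 3.14, 1.23, 3.21 and 2.89 CPM, with ratios of 3.67, 4.60, 4.06 and 4.001, and Cdkn2d had 1.61, 1.34, 2.05 and 1.55. Cdkn1a, the p21 inhibitor, stood at 20.4, 17.6, 24.3 and 12.8 CPM against 9.32, 4.89, 14.5 and 6.84 CPM, with ratios of 1.05, 1.66, 0.70 and 0.82, so this inhibitor too was higher in the proliferating cells of every library. Cdkn1b, the p27 inhibitor, had 0.12, 0.01, 0.10 and -0.12 and did not point one way.

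Of 22 genes of chromatin and tubulin, 16 were past the fold, with medians of 1.31, 1.22, 1.36 and 1.25. Stmn1, which takes microtubules apart, stood at 885, 803, 887 and 900.2 CPM against 228, 140.1, 201 and 197 CPM, with ratios of 1.95, 2.51, 2.13 and 2.18. H2ax, a histone that marks DNA breaks, had 2.26, 1.95, 2.48 and 2.10, and Lmnb1, of the nuclear lamina, 2.13, 2.55, 2.27 and 2.24. The ratios of this list were smaller than those of the mitotic lists in all 4 libraries.

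Among the genes in none of the lists, Pclaf, a PCNA-binding factor, was one of the highest, at 338, 327, 381 and 352 CPM against 16.1, 4.30, 19.7 and 13.6 CPM, with ratios of 4.31, 5.95, 4.21 and 4.60. Depdc1a had 4.67, 4.85, 4.54 and 4.49, Pimreg, a mitotic regulator, 4.08, 4.84, 4.41 and 4.32, and Troap 4.02, 4.81, 4.38 and 4.44. Knstrn, a spindle protein, had 3.42, 4.72, 3.62 and 3.95, Prr11 3.80, 4.05, 4.11 and 3.69 and Iqgap3 3.63, 4.88, 3.84 and 4.18. Mastl, the kinase that blocks the phosphatase opposing Cdk1, had 3.67, 3.97, 3.34 and 3.45. Mxd3, a Max partner, had 3.34, 3.64, 3.93 and 3.65. A gene known only as ENSMUSG00000120992 had 3.84, 4.96, 3.79 and 4.08. Several of these have mitotic roles, though none was on a list.

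The lowest genes were of other kinds. Kdm5b, a histone H3 lysine demethylase, stood at 15.1, 20.3, 15.1 and 21.2 CPM in proliferating and 54.1, 67.4, 46.7 and 65.5 CPM in comparison cells, with log2 ratios of -1.77, -1.68, -1.57 and -1.58. Another demethylase, Kdm7a, had -1.42, -1.55, -1.38 and -1.42. Mxd4, a Max partner that opposes Myc in differentiating cells, stood at 26.97, 26.7, 21.6 and 26.5 CPM against 84.7, 75.9, 62.4 and 76.1 CPM, with ratios of -1.62, -1.47, -1.49 and -1.49. The 2 Mxd genes thus went opposite ways, Mxd3 higher and Mxd4 lower in all 4 libraries. Pdk2, a kinase that slows entry of pyruvate into mitochondria, stood at 11.8, 12.9, 10.6 and 13.7 CPM against 37.8, 45.5, 34.99 and 41.03 CPM, with ratios of -1.60, -1.75, -1.63 and -1.51.

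Igfbp5, a secreted binding protein of insulin-like growth factors, was the most abundant of the lowest 15, at 304.5, 404, 391 and 521 CPM against 1036, 1369, 1109.5 and 1269 CPM, with ratios of -1.76, -1.76, -1.502 and -1.28. Lcn2, a secreted iron-carrier protein of inflamed epithelium, stood at 2.45, 7.65, 4.17 and 4.31 CPM against 7.43, 21.5, 14.99 and 13.3 CPM. H2ac19, a histone H2A gene, had -1.55, -1.95, -1.55 and -1.55. It is one of a family of near-identical histone genes whose reads the counting could split. The others were Gdpd2, Rnf207, Vwa7, Mir22hg, Wipf3, Pde1a, Fmo5 and ENSMUSG00000120104. Comparison cells thus held about 3 times the level of the leading genes, a smaller span than at the high end.

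**Figure D4:**
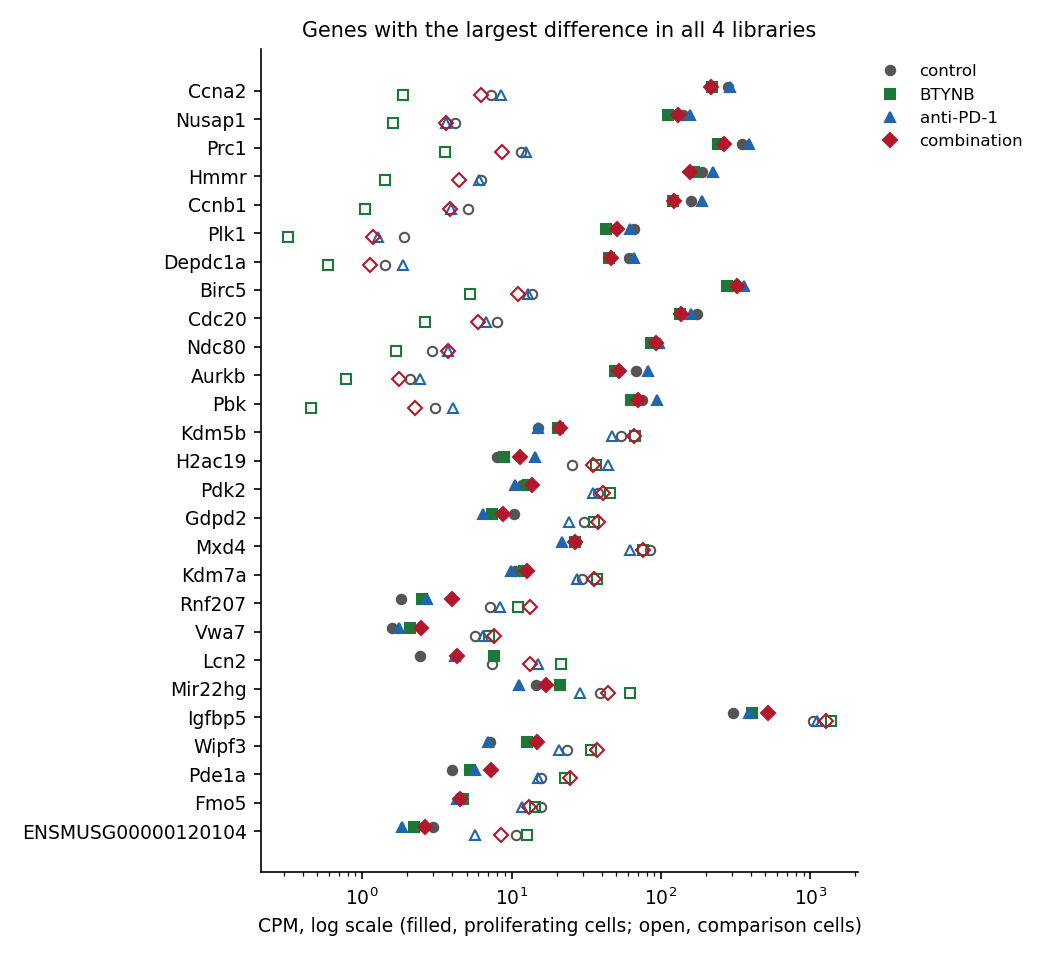
Level of the 12 highest and the 15 lowest genes in proliferating (filled) and comparison cells (open) of each library (CPM from summed UMIs, log scale). The genes were picked by these differences, so the gap between filled and open points follows from the choice. For Lcn2, BTYNB proliferating cells (7.65 CPM) pass control comparison cells (7.43 CPM).

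Lists outside the cell cycle were near 0 or below it, and none of their members was past the fold in either direction in all 4 libraries, against the background of 3.17% and 0.472%. Genes of NF-kB and the early response, induced by stress and cytokines, had medians of -0.61, -0.63, -0.47 and -0.67, and 21 of 22 measured members were below 0 in every library. Jun, a subunit of the AP-1 factor, stood at 360.4, 651, 445 and 675.5 CPM in proliferating and 673, 1271, 760.0 and 1289.5 CPM in comparison cells, with ratios of -0.90, -0.96, -0.77 and -0.93. Btg2, an antiproliferative early gene, stood at 193, 336, 214 and 314 CPM against 496, 701, 425 and 670.4 CPM, with ratios of -1.35, -1.06, -0.99 and -1.09. Genes of mesothelial and epithelial identity had medians of -0.87, -0.47, -0.42 and -0.47, and 11 of 14 were below 0 in every library. Muc16, the CA125 antigen, stood at 23.3, 49.3, 32.8 and 50.4 CPM against 74.9, 120.4, 58.2 and 124 CPM, with ratios of -1.64, -1.27, -0.81 and -1.28. Vim, of the intermediate filaments, was the highest member at 0.41, 0.65, 0.26 and 0.55.

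Antigen presentation differed by class. MHC class I genes, which show peptides to CD8 T cells, had medians of 0.01, 0.10, -0.05 and 0.0048, with 5 of 16 members above 0 and 6 below in every library. H2-K1, a classical class I chain, stood at 1976, 2740.1, 3137 and 2782 CPM against 2205, 2874, 3454.5 and 3017 CPM, lower by a small margin in each library and near the median of all genes. The nonclassical H2-T23 had -0.69, -0.90, -0.81 and -0.67. MHC class II genes, which show peptides to CD4 T cells, had medians of -0.40, -0.72, -0.55 and -0.42, and all 7 were below 0 in every library. H2-Aa stood at 721, 765.5, 1533 and 1109 CPM against 953, 1281, 2212 and 1506 CPM, with ratios of -0.40, -0.74, -0.53 and -0.44, and Ciita, the master factor of class II genes, had -0.90, -1.07, -0.91 and -0.92. Class II RNA was thus the lower in proliferating cells, and class I did not point one way.

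Interferon-inducible genes had medians of -0.36, -0.15, -0.42 and -0.19, with 16 of 25 measured members below 0 in every library, against medians over all genes of -0.13, -0.09, -0.10 and -0.14. The chemokine Cxcl10, which draws T cells, was the exception and the highest member, at 46.7, 88.3, 63.9 and 104 CPM against 25.2, 25.3, 25.9 and 34.7 CPM, with ratios of 0.87, 1.76, 1.27 and 1.56. It was detected in 25.4%, 33.8%, 22.6% and 36.5% of proliferating cells, but the 1% of cells with the most of it held 24.8%, 42.01%, 34.01% and 41.3% of its UMIs. Without those cells its level in proliferating cells was 35.5, 51.8, 42.6 and 62.2 CPM. Cytosolic ribosomal proteins were slightly higher, with medians of 0.21, 0.19, 0.12 and 0.26 and 69 of 77 above 0 in every library. Glycolysis genes had medians of 0.06, 0.28, 0.15 and 0.15. Ldha, which makes lactate, had 0.39, 0.57, 0.24 and 0.46, and Aldoa -0.35, -0.31, -0.34 and -0.31. The p53 targets had medians of 0.03, 0.30, -0.07 and 0.35, with the secreted Gdf15 the highest at 1.21, 1.33, 0.38 and 1.34. Of the oncofetal RNA-binding genes, Igf2bp1, the protein at which BTYNB is directed, stood at 7.41, 9.66, 10.5 and 10.8 CPM in proliferating and 9.41, 9.19, 14.6 and 12.8 CPM in comparison cells, with ratios of -0.31, 0.07, -0.44 and -0.23. It was therefore present at a low level in both and pointed one way in all libraries but BTYNB.

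Markers of other cell types were read in the same cells, as summed CPM over each list. The 12 macrophage markers summed to 62.7, 64.8, 119 and 216 CPM in proliferating and 62.6, 64.1, 158 and 145 CPM in comparison cells, against 10119 to 34237 CPM in leukocyte-gated cells. The 9 T cell markers summed to 12.9 to 22.3 CPM in proliferating cells, the 6 B cell markers to 11.4 to 39.6 CPM and the 6 neutrophil markers to 1.25 to 7.92 CPM. The 6 fibroblast markers summed to 309, 500.1, 292 and 328 CPM against 358, 372, 361 and 365 CPM, the 6 erythroid markers to 18.96 to 79.0 CPM and the 5 endothelial markers to 21.7 to 42.2 CPM. Macrophage markers were the highest in combination proliferating cells and fibroblast markers the highest in BTYNB proliferating cells. Retnlg and Mmp8 of the neutrophil list were at 0 in anti-PD-1 and combination proliferating cells, and Lum (fibroblasts) and Tie1 (endothelium) in the combination.

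Between treatments, proliferating cells were compared in 4 pairs of libraries over 10887 genes. With 1 library a group there is no replicate check, the intervals given cover counting error only (95%, of the ratio without the pseudocount), and pairs that have a library in common are not independent. BTYNB against control put 72 genes at a log2 ratio of 1 or above (0.661% of genes tested) and 68 at -1 or below (0.625%). Anti-PD-1 against control put 110 (1.01%) and 62 (0.569%) there, the combination against anti-PD-1 32 (0.294%) and 44 (0.404%), and the combination against BTYNB 24 (0.22%) and 10 (0.0919%). Of these 4 pairs, BTYNB and the combination thus had the fewest genes past the fold as counted, and control and anti-PD-1 the most. After thinning, BTYNB against control put 51 genes above and 70 below, and anti-PD-1 against control 73 and 48. The lead of anti-PD-1 against control was thus not kept at one depth. Values below follow the order in which the 4 pairs were first given.

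The medians of the cell cycle lists in proliferating cells differed by less than the fold between treatments. All these cells had passed the same limit on Mki67, Top2a and Ube2c, so alike levels are in part how the cells were taken. The S phase genes had median log2 ratios of -0.08, -0.02, -0.04 and -0.02, and after thinning 0.02, -0.07, -0.02 and -0.14. The G2/M genes had -0.20, 0.14, -0.31 and 0.02, and 19, 73, 4 and 53 of 92 were above 0. After thinning, these medians were -0.0043, 0.06, -0.16 and -0.08. Within the comparison cells the G2/M medians were -0.63, 0.03, -0.16 and 0.43, where BTYNB stood apart from control and from the combination. Cdk1, the kinase of mitosis, stood at 261, 203, 345 and 241 CPM in proliferating cells, with ratios of -0.36, 0.40, -0.52 and 0.24. Plk1 had -0.62, -0.10, -0.28 and 0.25 and Ccnb1 -0.40, 0.25, -0.62 and 0.03. One G2/M gene passed the fold, Ube2s, which extends ubiquitin chains for the anaphase-promoting complex. It stood at 72.5, 33.1, 34.03 and 29.1 CPM, so control was about 2 times the level of every other library, with ratios of -1.11, -1.07, -0.22 and -0.18.

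**Figure D5:**
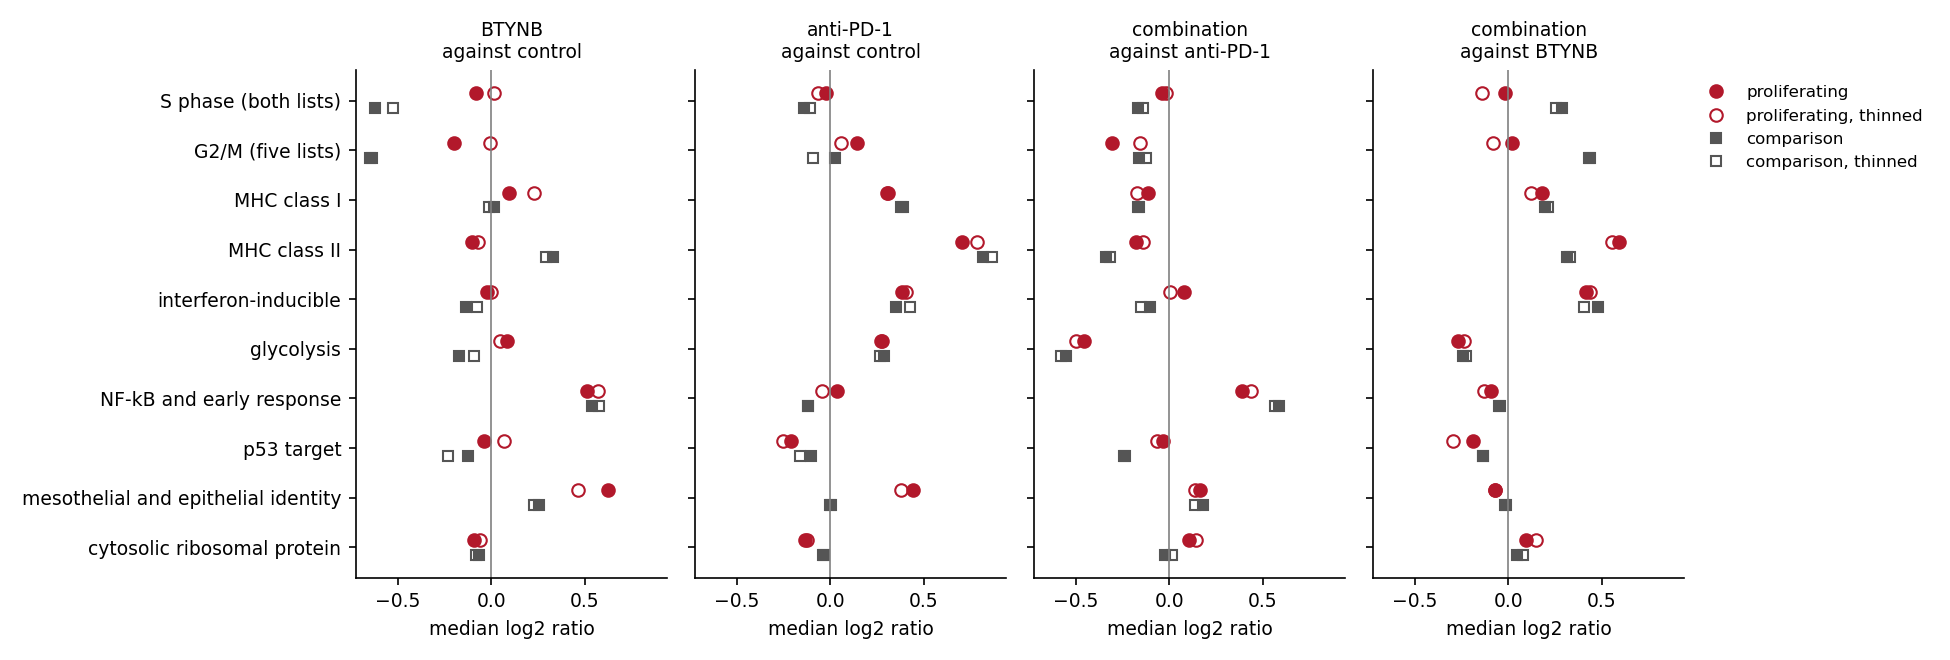
Median log2 ratio of each gene list between pairs of libraries in proliferating cells (circles, CPM from summed UMIs, pseudocount 1 CPM), in comparison cells (squares), and with cells thinned to 5115 UMIs (open symbols). In proliferating cells the S phase and G2/M lists lie between -0.31 and 0.14, MHC class II is highest for anti-PD-1 against control at 0.70, and NF-kB and early response genes are above 0 in both pairs that differ by BTYNB.

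Genes of NF-kB and the early response were higher with BTYNB, alone and on top of anti-PD-1. Their medians in proliferating cells were 0.51, 0.04, 0.39 and -0.09, with 21, 12, 22 and 6 of 22 above 0, against medians of all genes of -0.04 to -0.01 or nearer 0. Atf3, a stress-induced transcription factor, stood at 136, 251, 128 and 243 CPM, with ratios of 0.88, -0.08, 0.92 and -0.05 and an interval of 0.82 to 0.95 for the first pair. Both BTYNB libraries were above both others. Jun stood at 360.4, 651, 445 and 675.5 CPM and Zfp36, which speeds decay of inflammatory mRNAs, at 731, 1039.8, 792 and 1120.2 CPM. Cxcl1, a chemokine for neutrophils, stood at 52.8, 126, 42.5 and 92.95 CPM and was detected in 23.4, 41.6, 18.5 and 35.6% of cells, with ratios of 1.24, -0.31, 1.11 and -0.44 and intervals of 1.16 to 1.36 for the first pair and 1.01 to 1.25 for the third. Shares of cells in which a named gene was detected, here and elsewhere, are of cells not thinned. A deeper cell shows a gene more easily, and proliferating cells were the deepest in BTYNB. The comparison cells gave list medians of 0.54, -0.12, 0.58 and -0.05, so the pattern was not particular to proliferating cells.

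MHC class II genes were at higher levels with anti-PD-1. Their median log2 ratios were -0.10, 0.70, -0.18 and 0.59, with 3, 7, 0 and 7 of 7 above 0. Comparison cells gave medians of 0.33, 0.82, -0.34 and 0.31, so the higher level with anti-PD-1 was not particular to proliferating cells. H2-Aa stood at 721, 765.5, 1533 and 1109 CPM, with ratios of 0.09, 1.09, -0.47 and 0.53 and an interval of 1.06 to 1.11 for the second pair. H2-Eb1 stood at 477, 517, 1038 and 784 CPM, with ratios of 0.12, 1.12, -0.41 and 0.60. Anti-PD-1 alone was the highest library for both and the combination the second. Of the 7 genes, 2 were past the fold for anti-PD-1 against control (background 1.01%) and 0 for the combination against BTYNB (background 0.22%). Macrophage markers in the same cells had medians of -0.04, 0.80, 0.85 and 1.93, with 4, 8, 8 and 8 of 8 above 0, and their part in the result was not tested. MHC class I genes had medians of 0.10, 0.30, -0.11 and 0.18, against 0.02, 0.39, -0.16 and 0.20 in comparison cells. In proliferating cells 9, 13, 6 and 11 of 16 were above 0. H2-K1 stood at 1976, 2740.1, 3137 and 2782 CPM and Tap1, which pumps peptides to class I chains, at 130.2, 153, 218 and 206 CPM, with control the lowest library for both.

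Interferon-inducible genes had medians of -0.02, 0.39, 0.08 and 0.41, against -0.13, 0.35, -0.10 and 0.48 in comparison cells. In proliferating cells 13, 22, 14 and 22 of 26 were above 0. Gbp2, an interferon-induced GTPase, stood at 118, 138, 296 and 224 CPM, with ratios of 0.23, 1.32, -0.40 and 0.69. Igtp, of the same class, stood at 64.6, 70.3, 160.3 and 131 CPM, with ratios of 0.12, 1.30, -0.29 and 0.88. Cd274, which encodes the PD-1 ligand, stood at 8.02, 12.4, 18.4 and 20.3 CPM, with ratios of 0.58, 1.11, 0.13 and 0.66, and an interval of 0.96 to 1.44 for the second pair. Irf1, a factor that turns on class I genes, stood at 94.03, 129, 136 and 125 CPM, lowest in control. Both anti-PD-1 libraries were thus above both others for Gbp2, Igtp and Cd274, and BTYNB lay above control for each.

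Glycolysis genes were highest in anti-PD-1, with medians of 0.08, 0.27, -0.45 and -0.27, against -0.17, 0.29, -0.55 and -0.24 in comparison cells. In proliferating cells 10, 14, 0 and 0 of 15 were above 0. Pgk1, which makes ATP in glycolysis, stood at 319, 342, 491 and 296.5 CPM, with ratios of 0.10, 0.62, -0.73 and -0.20. Pdk1, a kinase that turns pyruvate away from mitochondria, stood at 11.98, 12.5, 18.4 and 8.39 CPM and Aldoa at 783, 926, 1081 and 753 CPM. The combination was the lowest library for all 3. Genes of mesothelial and epithelial identity had medians of 0.62, 0.44, 0.17 and -0.07, against 0.25, 0.0045, 0.18 and -0.02 in comparison cells. Cdh2, N-cadherin, stood at 22.98, 54.00, 39.5 and 48.7 CPM, lowest in control, and Muc16 at 23.3, 49.3, 32.8 and 50.4 CPM. Ribosomal protein genes had medians of -0.09, -0.13, 0.11 and 0.10.

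Hmga2, an oncofetal chromatin protein, stood at 26.1, 15.99, 58.6 and 20.6 CPM, with ratios of -0.67, 1.14, -1.47 and 0.34, so anti-PD-1 alone stood above the other 3 libraries. Igf2bp1 stood at 7.41, 9.66, 10.5 and 10.8 CPM, with ratios of 0.34, 0.45, 0.04 and 0.15, lowest in control. The p53 targets had medians of -0.04, -0.21, -0.03 and -0.19, and Mdm2, the ubiquitin ligase of p53, stood at 25.1, 34.8, 29.1 and 33.3 CPM.

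Past the fold in both pairs that differ by BTYNB, 11 of 10887 genes were higher and 3 lower in proliferating cells. The single pairs put 0.661% and 0.294% of genes above the fold and 0.625% and 0.404% below it. Higher were the chemokines Ccl2 and Cxcl1, the collagen I chains Col1a1 and Col1a2, the acute phase gene Saa3, the protease inhibitor Slpi, the actin bundler Fscn1, the metallothionein Mt2, Cytip, H2-Q7 and Ly6c2. Lower were Bcas1, Cma1 and Pthlh. Bcas1, Cma1 and Pthlh reached the required 100 UMIs only in control and anti-PD-1. Ly6c2 and Cytip reached it only in the combination. The direction of these genes is thus in part set by that limit. Bcas1 stood at 8.52, 2.92, 7.13 and 2.36 CPM, with ratios of -1.28, -0.23, -1.28 and -0.22, and Vldlr, a lipoprotein receptor, at 9.43, 4.03, 8.78 and 3.96 CPM. Both BTYNB libraries were under both others for these 2 genes. Pthlh, a hormone-like peptide of tumours, stood at 11.3, 4.59, 42.5 and 5.69 CPM, with ratios of -1.14, 1.82, -2.70 and 0.26, and was far the highest in anti-PD-1. Ly6c2, H2-Q7 and the other class I genes belong to families of near-identical genes whose reads the counting could split.

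Collagen I was carried by few cells. Col1a2 stood at 32.7, 134, 11.8 and 54.3 CPM, with ratios of 2.005, -1.40, 2.11 and -1.29, and Col1a1 at 34.6, 123, 16.6 and 57.8 CPM, with ratios of 1.80, -1.02, 1.74 and -1.07. Col1a2 was detected in 2.57, 4.55, 1.49 and 3.22% of proliferating cells, and the 1% of cells with the most of it held 88.8, 55.7, 95.3 and 89.3% of its UMIs. Saa3 stood at 54.6, 159, 24.7 and 108 CPM, and the top 1% of cells held 91.5, 54.8, 85.2 and 80.8% of its UMIs. Cells with 10 or more UMIs of Col1a1 and Col1a2, a limit set after the values were seen, were 31, 20, 14 and 23 proliferating cells, or 1.27%, 3.03%, 0.597% and 1.81%, and 13, 7, 12 and 16 comparison cells, or 0.547%, 0.527%, 0.509% and 1.02%. The proliferating ones carried the fibroblast markers Dcn (1259, 1212, 517 and 605 CPM) and Pdgfra (346, 685, 254 and 196 CPM). Lum, of the same marker list, was low in them, at 3.61, 6.06, 18.8 and 0 CPM. Wt1 stood at 436, 530.3, 517 and 735 CPM, but it counted towards the rule, so its presence is no check of what these cells are.

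Leaving these cells out fixes what is left of collagen, so no collagen ratio without them is read. Without the 1% of cells richest in each gene, the ratio for BTYNB against control was 3.70 for Col1a2, 2.92 for Col1a1 and 3.69 for Saa3. This trim took out 25 control cells and 7 BTYNB cells, with 88.8% and 55.7% of the Col1a2 UMIs and 91.5% and 54.8% of those of Saa3. It left more of the rich cells in BTYNB, so these trimmed ratios are not read as a larger difference. Without the collagen-rich cells, Saa3 had -0.71 for BTYNB against control and 0.26 for the combination against anti-PD-1. Cxcl1 had 1.08 for BTYNB against control and 1.02 for the combination against anti-PD-1, Cytip 1.19 and 1.13, and Ly6c2 1.47 and 1.70. Ly6c2 rests on 22 UMIs in 7 control cells and 58 UMIs in 17 BTYNB cells, and without the 1% of cells richest in it the first of these pairs had 0.77. Mt2 had 1.47 and 0.73, Ccl2 0.92 and 0.77, H2-Q7 0.88 and 0.88, Fscn1 0.62 and 0.88, and Slpi 0.26 and 0.497. Of the 11 genes, Cxcl1, Cytip and Ly6c2 were thus past the fold in both pairs without the collagen-rich cells. Cytip was detected in 2.69%, 11.4%, 2.26% and 7.69% of proliferating cells and 4.42%, 10.7%, 2.63% and 8.71% of comparison cells. Its pattern was thus not particular to proliferating cells. The part of leukocyte RNA in these genes was not tested. Without the 1% of cells richest in it, Cxcl1 had 1.19 and 1.17.

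Past the fold in both pairs that differ by anti-PD-1, 5 of 10887 genes were higher (Arg1, Cd52, Ifitm1, Lyz2 and Wfdc17). Another 4 were lower (Col1a1, Col1a2, Gpr176 and S100a8). The single pairs put 1.01% and 0.22% of genes above the fold and 0.569% and 0.0919% below it. Gpr176 and S100a8 reached the required 100 UMIs only in control. Arg1 and Wfdc17 reached it only in the anti-PD-1 and combination libraries. The direction of Gpr176, S100a8, Arg1 and Wfdc17 is thus in part set by that limit. Ifitm1, an interferon-induced membrane protein, stood at 3.59, 3.41, 25.8 and 9.65 CPM, with ratios of -0.06, 2.55, -1.33 and 1.27. Cd52, a surface glycoprotein, stood at 10.6, 14.5, 28.7 and 31.3 CPM, with ratios of 0.41, 1.35, 0.12 and 1.06. Lyz2, the lysozyme of macrophages, stood at 16.3, 17.7, 36.2 and 80.1 CPM and was detected in 5.35, 7.74, 7.94 and 18.8% of proliferating cells. The 1% of all proliferating cells with the most of it held 76.7, 80.3, 68.2 and 59.4% of its UMIs. Arg1, another macrophage gene, was counted in 72, 6, 129 and 221 UMIs. Cells with 5 or more UMIs of Lyz2, C1qb, Fcer1g and Tyrobp, again a limit set afterwards, were 1.10%, 1.52%, 1.96% and 3.53% of proliferating cells and 1.30%, 1.43%, 1.91% and 2.24% of comparison cells. Of those proliferating cells, 29.6%, 60%, 32.6% and 48.9% were among the 5% with the highest doublet scores. Macrophage RNA thus moved with these genes, and its part in the result was not tested. S100a8 rested on 105, 30, 2 and 5 UMIs, 95 of those of control in 1 cell. Without the 1% of cells richest in each gene, anti-PD-1 against control had a ratio of -1.59 for Col1a2 and -0.33 for Col1a1.

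A small group of proliferating cells was found mainly in the anti-PD-1 library. Cma1, a chymase gene, stood at 4.50, 1.67, 42.3 and 1.61 CPM and Apoa1, an apolipoprotein, at 3.39, 1.25, 28.3 and 1.67 CPM. Cells with 3 or more UMIs of both together were 132 of 2344 anti-PD-1 proliferating cells (5.63%, exact binomial 95% interval 4.73 to 6.64%), against 8, 1 and 1 cells in control, BTYNB and the combination. Among comparison cells they were 119 of 2359 in anti-PD-1 (5.04%, 4.20 to 6.01%), against 4, 3 and 0. Their share was thus alike in proliferating and comparison cells of that library. In the 132 cells Krt18 stood at 585 CPM and Wt1 at 533 CPM, against 487 and 695 CPM in all anti-PD-1 proliferating cells. Both genes counted towards the rule. Upk3b, a mesothelial marker, stood at 69.9 CPM and Cd74 at 196 CPM. Both were higher in the collagen-rich proliferating cells of that library (329 and 1016 CPM) and in those with macrophage genes (467 and 1786 CPM). Mice of the anti-PD-1 group were pooled, so it cannot be told apart whether the Cma1 and Apoa1 cells came from 1 mouse or several.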

How the data were processed

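Cells of ascites fluid were profiled with a BD Rhapsody whole-transcriptome assay, 1 library for each of 4 treatment groups. The authors mapped reads with the BD pipeline to GRCm39 and deposited a matrix of UMI counts per gene and cell for each library, with no cell type annotation used here. The 4 matrices were joined by symbol (29835 genes), and every column was used. The proliferating tumour cells, the gene lists and the named genes were chosen with earlier results of these data known. Named genes were the 12 highest by their smallest library ratio, the 10 highest in no list, the 15 lowest, the extremes of each list, and the 5 highest and lowest for each agent. Other genes, and the cell groups defined by collagen, Cma1 or macrophage genes, were chosen after their values were seen. Counts were summed over cells, scaled to CPM and compared as log2(CPM + 1). No test was run, since each group is 1 library. Intervals are exact (Clopper-Pearson for shares, conditional binomial for ratios, 95%) and cover counting error only. Genes needed 100 UMIs in every library, or in at least 1 library between treatments. Doublets were not removed in the main values. Leaving out the 5% of cells with the highest scrublet score in scanpy 1.11.5 was an alternative. Thinning drew 5115 UMIs per cell without replacement. Other tools were Python 3.11.15, numpy 2.4.6, pandas 2.3.3, scipy 1.17.1 and matplotlib 3.10.9. The scripts were tested on simulated data. Promoters came from RefSeq (GRCm38.p6) and were matched by symbol, and no coordinates of the files' build are given. A few genes of the lists are not reported here.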

Additional observations from a re-analysis of the deposited data

Results flagged for a closer look

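The effect of anti-PD-1 on the share of proliferating cells pointed opposite ways without and with BTYNB, at -0.487 percentage points for anti-PD-1 minus control and 6.39 points for the combination minus BTYNB. The effect of BTYNB on the median log2 ratio of interferon-inducible genes in proliferating cells was -0.0225 without anti-PD-1 (BTYNB minus control) and 0.0809 with it (combination minus anti-PD-1). For MHC class I genes it was 0.0979 and -0.114. With 1 library a group, none of these differences was tested. The share for anti-PD-1 minus control became 2.59 points with cells thinned to one depth, and all 4 list medians lie close to 0.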

How the results depend on the processing

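Each group had 1 library, so no value carries an error between mice. No paired analysis was possible because each group has 1 library and no result comes from a test. Depth limits the shares, since a deeper cell reaches 3 UMIs more easily, and so does the number of UMIs required. Thinned shares of control, BTYNB, anti-PD-1 and combination were 30.2%, 19.1%, 32.8% and 25.1%. With 2 UMIs required they were 45.6%, 32.3%, 45.1% and 41.3%, and with 5 UMIs 31.9%, 23.3%, 31.0% and 27.0%. Without the limit on Cd24a, Gkn2 and Krtdap they were 40.0%, 32.2%, 42.8% and 37.7%. Without a depth minimum BTYNB was 25.8%, anti-PD-1 33.1% and the combination 34.1%, so anti-PD-1 and the combination changed order. Without the highest doublet scores control was 37.3%. BTYNB stood lowest under each of these settings. With a pseudocount of 10 CPM, 218 genes were higher and 11 lower, and 30 were lower with median-of-ratios scaling. Leaving out each library in turn gave 351 to 366 higher genes and 54 to 95 lower genes, the 95 without the anti-PD-1 library. The mean over libraries of the MHC class I median was 0.13 with median-of-ratios scaling, and that of the S phase genes 1.65 in thinned cells.

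Between treatments, thinning (chosen after seeing the data) left 73 genes higher in anti-PD-1 than control and 19 higher in the combination than anti-PD-1. Without collagen-rich cells (also chosen after) these were 19 for the combination above anti-PD-1 and 6 below BTYNB. Without high doublet scores 15 genes were higher in the combination than BTYNB, and with the mean over cells 19 were lower. Some medians near 0 changed sign. S phase genes became 0.0154 in BTYNB against control (thinned), 0.0126 in anti-PD-1 against control (median of ratios), and in the combination against BTYNB 0.0212 (median of ratios) or 0.0137 (without high doublet scores). G2/M genes in the combination against BTYNB became -0.00371 (no depth minimum) or -0.0827 (thinned), and interferon-inducible genes in BTYNB against control 0.0379 (mean over cells). The cause was not tested. Without the 1% of cells richest in each named treatment gene, 36 of 45 ratios stayed on their side of the fold, and 9 were past it no longer, among them S100a8 and Saa3 in anti-PD-1 against control.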
